A study of Drosophila melanogaster with 4 samples.

Results

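Lone wide regions are stretches of chromatin that the CG8478 antibody enriched over a long span and that had no other called region close by. They were chosen from the authors' list of called regions as those at least 600 bp wide with no other called region nearer than 5 kb on either side. Only X, both arms of chromosomes 2 and 3, and chromosome 4 were searched. There were 388 of them, 10.3% of the 3757 called regions there (95% exact binomial interval 9.37 to 11.3%, counting error only) and 9.54% of the 4067 in the whole list. Being chosen for width, they made up a larger share of the bases covered by called regions on the arms, 22.0% or 395 kb of 1794 kb. The same held for equally wide regions with a called neighbour nearer than 5 kb, which were 15.9% of the regions and 33.5% of the bases.

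The list came from chromatin immunoprecipitation followed by sequencing (ChIP-seq) in white prepupae of Drosophila melanogaster, with 2 ChIP and 2 input libraries, the input being DNA that was not immunoprecipitated. All 4 libraries were from the strain Y cn bw sp, and its genotype combined y[1] and oc[R3.2] with cn[1], bw[1], sp[1], Gr22b[1], Gr22d[1] and CG33964[R4.2], and with lab[R4.2], LysC[1], Rh6[1], GstD5[1] and MstProx[1]. The antibody was a rabbit polyclonal raised against a piece of the CG8478 protein. The 1 list gave neither values per library nor read depths, so no spread between replicates and no input level could be set beside a region, and bound chromatin of different cell types in whole animals cannot be told apart.

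The white prepupa is the brief stage at which the larva stops moving and forms the puparium under a pulse of the steroid hormone ecdysone. CG8478 is a protein-coding gene of chromosome arm 3R, still known by its annotation number. The 111-residue antigen given for the antibody held 1 match to the spacing of a C2H2 zinc finger, a fold in which a pair of cysteines and a pair of histidines hold a zinc ion. Proteins with such fingers often bind DNA by sequence. In general, a peak caller reports a wide region where signal is strong enough to spread beyond a single fragment or where several bound sites lie too close to be separated.

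A score from the peak caller came with each called region and is a value of the authors. The list does not say what it measures, so scores rank and describe regions within the list, and their differences have no stated scale. Width and spacing chose the regions, and the score comes from the same peak calls, so every value below is a description and no test was made. Intervals are 95% intervals for counting error only, exact binomial for shares and from the order of the values for medians. Regions are not independent replicates. Coordinates are in FlyBase release 5, counted from 1. The gene table used here belongs to another assembly, so genes and sequences at these positions were not analysed here.

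The lone wide regions included the 2 highest scores on the arms. Their highest was first among all regions on the arms. It lay on X at 8544644 to 8545683, was 1040 bp wide and scored 490.21. Its left neighbour was 25.4 kb away and its right neighbour 5.43 kb away, so it stood close to the limit of isolation on one side only. The second on the arms was also a lone wide region, at 3L 377163 to 378659, 1497 bp wide with a score of 458.54 and 31.3 kb from its nearer neighbour. The third of the lone wide regions, at X 17662077 to 17662880, was narrower at 804 bp and scored 387.34.

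The next in rank were spread over the arms. At 2L 7827804 to 7829377 the score was 356.08 over 1574 bp, the highest of that arm. At 3R 677992 to 678772 it was 342.49 over only 781 bp, the highest of 3R. On X, the region at 19471989 to 19473786 scored 326.16 and was 1798 bp wide, whereas the one at 5454337 to 5455108 scored 307.55 in 772 bp. High scores among them were thus reached both by regions near the width limit and by regions over 1500 bp. The highest lone wide region of 2R lay at 10345272 to 10346094, with a score of 279.54 and a width of 823 bp, below other wide regions of that arm. Chromosome 4 held 2 lone wide regions, consecutive and 12.1 kb apart, at 1334207 to 1335089 (score 142.63) and 1347215 to 1348132 (score 126.66).

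The other lone wide regions among the 25 highest scored between 244.81 and 285.57. On 3R they began at 12589175 and 26737845, which shared the score 285.57, and at 25381473 (278.33), 4007013 (255.02), 660719 (254.17) and 17271814 (253.35). On X they began at 16110534 (284.68), 13633286 (262.75), 15754197 (253.35) and 8518550 (252.18). Those of 3L began at 12602283 (272.33) and 19888428 (268.86), and those of 2L at 5460985 (272.33), 12586798 (252.18), 16422569 (248.66) and 1 (248.07). The last of the 25 was at 2R 18129330 to 18131680 with 244.81. Among these 25, neighbours in the list occurred on 3R, where 660719 to 661826 and 677992 to 678772 were consecutive called regions 16.2 kb apart, and on X, where 8518550 to 8519277 lay 25.4 kb before the region with the highest score on the arms.

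Of the 10 highest-scoring regions on the arms, 6 were lone wide regions. They made up 7 of the 20 highest, 23 of the 50 highest and 48 of the 100 highest. Wide regions with a neighbour under 5 kb supplied 45 of the 100 and lone narrow regions 7, while narrow regions with a neighbour supplied 0. The choice of wide regions sets much of this, because wider regions scored higher. The highest region left out for a neighbour lay at 2R 15993698 to 15994481, with a score of 430.24, a width of 784 bp and a gap of 3.83 kb. The highest left out for its width lay at X 5487853 to 5488361, a 509 bp region with a score of 324.91.

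Scores of the 388 lone wide regions ran from 15.14 to 490.21, with a median of 73.3 (interval 61.3 to 81.5) and quartiles of 43.6 and 121. The median over all regions on the arms was 19.93, and only 14 of the 388 were at or below it. The top 25% of scores on the arms, those above 43.74, took in 290 lone wide regions (74.7%, interval 70.1 to 79.0%), and the top 10%, those above 95.6, took in 136 (35.1%, interval 30.3 to 40.03%). Wide regions with a neighbour were in the top 25% at 68.5% and in the top 10% at 31.7%, so high scores went with the choice of wide regions in both classes. The lowest score was at X 15206171 to 15206946 (15.14). On 3R, 17049463 to 17050264 scored 16.2 and 20120993 to 20121752 scored 16.96. The other two of the 5 lowest were at 3L 6935270 to 6935888 (16.39) and 2L 20918275 to 20918908 (16.85). These weak regions were between 619 and 802 bp wide.

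Most lone wide regions were not much wider than the limit. The median width was 837.5 bp (interval 805 to 863 bp) with quartiles of 722 and 1066 bp, and 265 of the 388 (68.3%) were under 1 kb. Only 36 reached 1500 bp and 11 exceeded 2 kb. The widest region of the list, at 3L 1 to 20044, scored 128.15, and the next, at 2L 1 to 6119, scored 248.07. Both begin at the first base of their arm in the build. Away from these arm starts the widest lone region measured 3367 bp, at 3L 13995226 to 13998592 (score 162.62). Next came 2R 14242599 to 14245427 with 2829 bp and the lower score of 88.82, then 3R 25597823 to 25600485 with 2663 bp and a score of 205.9.

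Width gave only a loose guide to score among them. Spearman's rho between width and score was 0.39 across the 388 lone wide regions and 0.42 across the 597 wide regions with a neighbour, against 0.82 across all 3757 regions on the arms, which cover a broader range of widths. Among the 123 lone regions of 1 kb or wider the median score was 104 (interval 90.03 to 123), yet scores in this group ran from 19.93 upward. The 5 lowest of them began with X 10218780 to 10219873 (19.93), then 3L 14402523 to 14403597 (22.02), X 3056043 to 3057114 (24.55), 2R 6694146 to 6695675 (24.56) and 3R 5243569 to 5245301 (25.87, over 1733 bp). The region at X 10218780 to 10219873 was 54 bp wider than the strongest region of the arms.

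**Figure D1:**
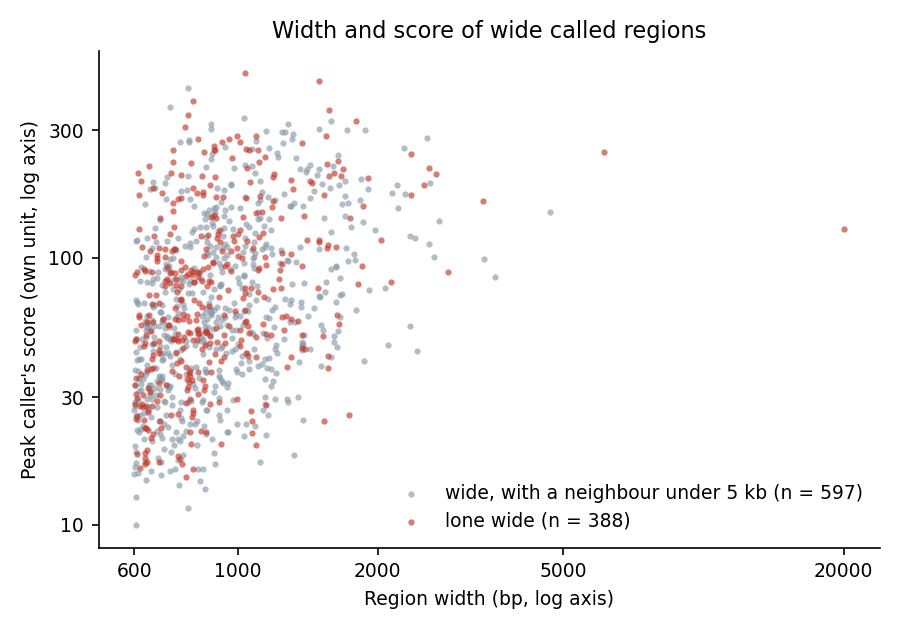
Score against width for the 388 lone wide regions (red) and the 597 wide regions with a called neighbour nearer than 5 kb (grey), both axes logarithmic and 1 point per region. The clouds overlap over nearly the whole range, and the red points at the far right are the regions of 6119 and 20044 bp at the starts of 2L and 3L.

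The comparison with other wide regions asked whether standing alone went with a different score. Lone wide regions had a median score of 73.3 and wide regions with a neighbour one of 61.1 (interval 57.3 to 65.9), a difference of 12.2 in the score's own unit (0.12 to 20.4 over the interval of the lone regions' median, the other median held fixed). The difference was 4.05 with a width limit of 500 bp, 5.18 within the top 50% of scores and 2.15 after regions under 1 kb apart were joined. The lone regions were not the wider ones, with a median width of 837.5 bp against 883 bp (interval 859 to 911 bp). The medians were therefore set side by side within classes of like width. From 600 to below 800 bp the median score was 52.0 in 165 lone regions and 44.6 in 230 with a neighbour. From 800 to below 1000 bp it was 81.3 in 100 lone regions and 61.7 in 150 others. Between 1000 and 1500 bp, split at the middle, the medians were 91.3 against 80.4 in the lower class and 98.2 against 88.6 in the upper. At 1500 bp or more they were 159 against 111. The lone regions had the higher median in each of the 5 classes, and in each the intervals of the medians overlapped.

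**Figure D2:**
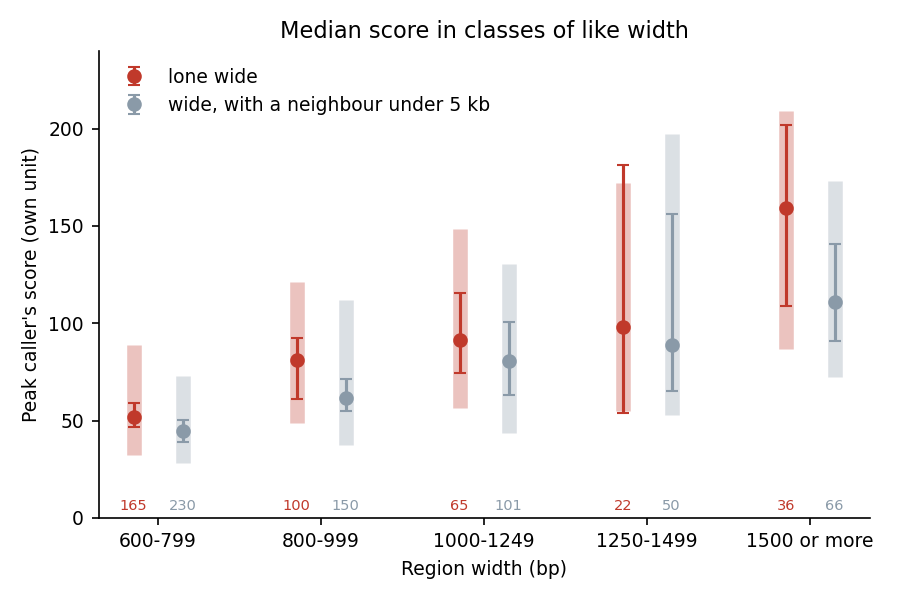
Median score of lone wide regions (red) and of wide regions with a neighbour under 5 kb (grey) in 5 classes of width, with bars for the 95% interval of the median, pale bands for the quartiles and the number of regions at the foot. The red medians lie above the grey ones, by 7.37 in the narrowest class and 48.7 in the widest, and the intervals overlap in every class.

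The share of wide regions that stood alone was larger among the higher scores, but this difference was not tested. The 985 wide regions were cut by score into 4 classes of nearly equal size. In the class with the lowest scores (9.97 to 38.77), 33.6% were lone (83 of 247, interval 27.7 to 39.9%). In the next classes the shares were 39.4% and 40.9%, and in the class with the highest scores (115.67 to 490.21) it was 43.7% (107 of 245, interval 37.4 to 50.1%). The intervals of the lowest and highest classes overlapped, which alone does not settle whether their shares differ.

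Wide and narrow regions stood alone about equally often at the limit of 5 kb, but the share differed between narrower classes of width. Of the 985 wide regions, 39.4% were lone (interval 36.3 to 42.5%), and of the 2772 narrow regions, 41.3% were (1144 regions, interval 39.4 to 43.1%). With gaps of at least 20, 50 and 100 kb the shares were 15.6, 3.55 and 0.51% of wide regions. Those of narrow regions were higher, 18.3, 5.74 and 1.44%, with intervals that overlapped those of the wide regions, only just at 50 kb. Across classes of width the lone share was 36.9% among regions under 200 bp (349 of 946, interval 33.8 to 40.1%) and 45.0% from 400 to below 600 bp (280 of 622, interval 41.1 to 49.0%). Among wide regions it was 41.8% from 600 to below 800 bp (165 of 395), lowest in the upper class between 1000 and 1500 bp at 30.6% (22 of 72, interval 20.2 to 42.5%), and 35.3% at 1500 bp or more (36 of 102, interval 26.1 to 45.4%).

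Isolation varied widely among the lone wide regions. The nearer neighbour lay at a median of 16.2 kb, with quartiles of 9.8 and 26.8 kb and a range from 5.03 to 143.6 kb, and the farther neighbour at a median of 49.9 kb. A gap of at least 10 kb on both sides was found for 286 of them, one of at least 20 kb for 154, one of at least 50 kb for 35 and one of at least 100 kb for 5. The most isolated lay at 2L 22168446 to 22169076, a 631 bp region with a score of 90.71 whose nearer neighbour was 143.6 kb away. It was followed by 3R 1833071 to 1833931 (score 78.08, 141.4 kb), 3L 12258884 to 12259627 (52.01, 140.8 kb), 2R 2758851 to 2760283 (194.33, 119.8 kb) and 3R 11618953 to 11620619 (201.91, 113.03 kb). The 5 most isolated thus held scores from below the median of the lone wide regions to above their upper quartile.

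No steady relation between isolation and score was seen. Median scores were 73.7 in the 102 regions with a nearer neighbour at 5 to 10 kb, 81.4 in the 132 at 10 to 20 kb, 65.4 in the 119 at 20 to 50 kb and 71.3 in the 35 beyond 50 kb. The intervals of these medians overlapped one another. Across the 388, Spearman's rho between the gap to the nearer neighbour and the score was -0.02, and between that gap and the width -0.05.

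In width and score, but not in isolation, the nearer neighbours were close to the regions of the arms in general. For 278 of the 388 (71.6%) the nearer neighbour was a narrow region, and 73.8% of all regions on the arms were narrow. In 196 cases (50.5%) it was a lone narrow region, a class that made up 30.4% of the regions on the arms. Another lone wide region was the nearer neighbour in 75 cases (19.3%), against 10.3% of arm regions. A wide region with a neighbour was nearer in 35 (9.02%), against 15.9% of arm regions. The rule itself favours lone neighbours, because each has at least 5 kb free on the side of the lone wide region. The neighbours had a median score of 22.2 and a median width of 375 bp, against 19.93 and 343 bp over all regions on the arms. The lone wide region had the higher score in 311 of the 388 pairs (80.2%). The choice of wide regions sets much of this, because wider regions scored higher. Within 50 kb on both sides, 35 lone wide regions had no other called region at all, and 194 (50.0%) had company but the highest score. Within 100 kb these numbers were 5 and 161. Here too the choice of wide regions enters, and isolation leaves fewer regions nearby to score higher. Shares for the other classes of region are not given here.

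Beyond the 5 kb that the choice required, lone wide regions had fewer called regions per Mb around them than wide or narrow regions with a neighbour. This measure counts a cluster around each of its members. At 5 to 10 kb, 74.7% of lone wide regions had no other called region, against 47.1% of wide and 50.6% of narrow regions with a neighbour. At 50 to 100 kb these shares were closer, 14.9% against 12.6% and 11.4%. The arms as a whole held 31.9 called regions per Mb of length. That is not a like measure, because counts around regions are taken only where called regions lie. At 5 to 10 kb from a lone wide region there were 39.7 other called regions per Mb searched, and at 10 to 20, 20 to 50 and 50 to 100 kb there were 42.6, 38.9 and 33.6 per Mb. Lone narrow regions gave nearly the same values, 39.8, 44.0, 39.3 and 35.8. Narrow regions with a neighbour gave 110, 84.7, 68.7 and 48.3. Wide regions with a neighbour gave 117, 99.0, 70.6 and 44.6. The values of both classes with a neighbour include the longest chain of called regions with gaps under 5 kb, 66 regions at 2L 21451200 to 21541594. It and the regions within 50 kb of it numbered 84, with 0 lone wide regions among them. Without these 84, narrow regions with a neighbour gave 90.8, 67.6, 52.9 and 40.0. Wide regions with a neighbour then gave 97.8, 80.6, 54.3 and 35.6. Of these wide values only that from 50 to 100 kb came near that of the lone wide regions, at 33.2.

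**Figure D3:**
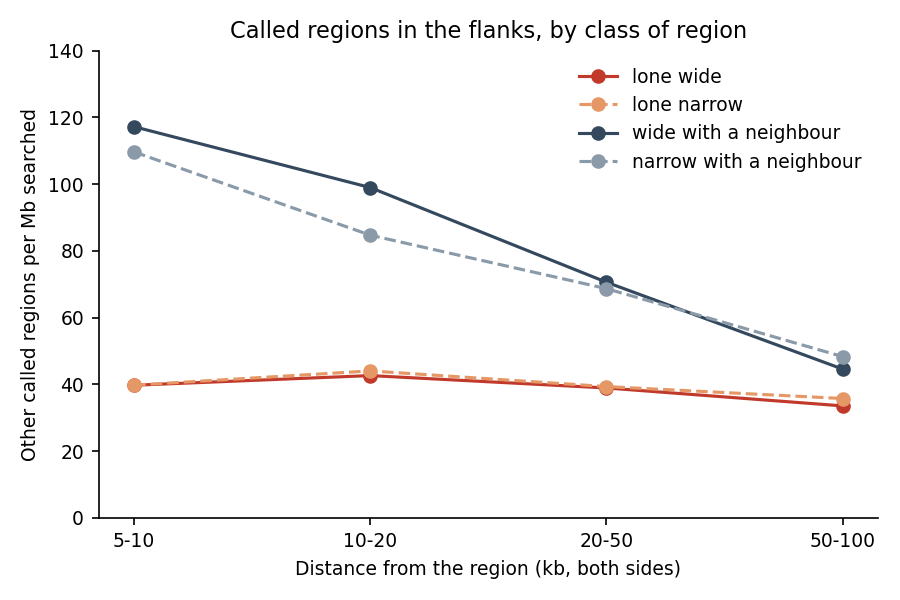
Other called regions per Mb searched at 4 distances from a region, on both sides and within the span of called regions on the arm, for the 4 classes made by width (limit 600 bp) and isolation (limit 5 kb), with no error bars because regions in a cluster are counted around each of its members. Both lone classes stay between 33 and 45 per Mb, and both classes with a neighbour fall from over 100 towards 50 per Mb or less, the chain of 66 regions on 2L included.

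Every large arm carried lone wide regions. For its length, between the first and last called region, X had 4.06 per Mb (91 regions), 2R had 3.99 (78), 3R had 3.37 (94), 3L had 2.67 (64) and 2L had 2.60 (59). X held 23.5% of the lone wide regions (interval 19.3 to 28.0%) and 23.4% of all called regions on the arms. The share of an arm's wide regions that stood alone was 43.1% on 2R (interval 35.8 to 50.6%), 42.5% on 3R (35.9 to 49.3%), 38.6% on 3L (31.1 to 46.4%), 36.4% on X (30.4 to 42.7%) and 36.0% on 2L (28.6 to 43.8%). On the autosomes together it was 40.4% (297 of 735, interval 36.8 to 44.1%). These intervals of the lone share overlapped, and no order of the arms was tested. The numbers per Mb were given without intervals, so the overlap does not cover them.

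Scores of the lone wide regions spread widely within arms, and the intervals of the medians of the large arms overlapped. The median score was 89.7 on 2L (interval 56.3 to 101), 81.3 on X (57.4 to 92.2), 70.5 on 3R (53.5 to 81.9), 62.3 on 3L (52.0 to 87.5) and 58.8 on 2R (52.5 to 88.5). Quartiles within arms were 41.7 and 143 on 2L and 49.1 and 125 on X. They describe single regions, so their distance is no measure to set against that between medians. Median widths lay between 764 bp on 3L (interval 729 to 827 bp) and 890 bp on X (791 to 1000 bp).

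**Figure D4:**
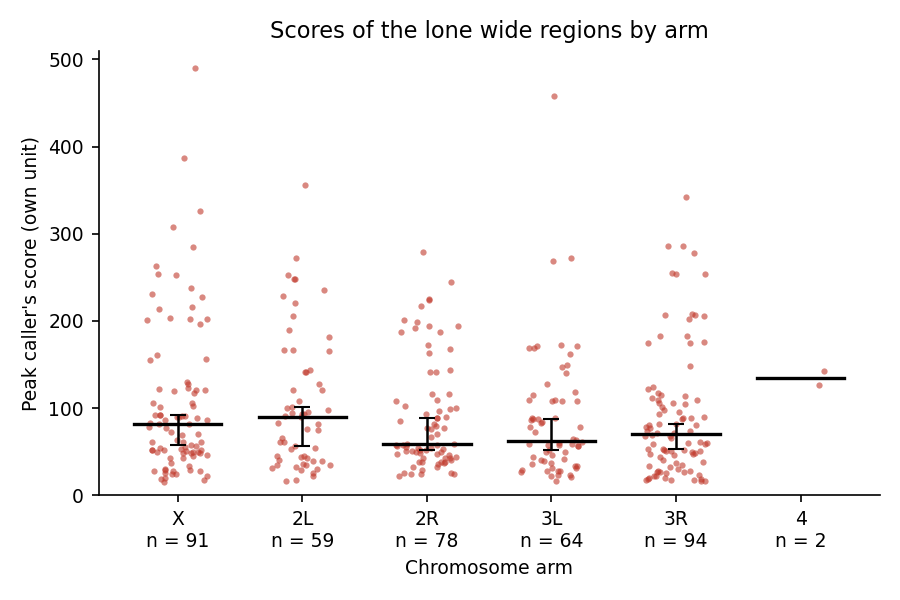
Scores of the 388 lone wide regions by chromosome arm, 1 point per region with random sideways spread, a line at the median and bars for its 95% interval on the arms with more than 5 regions. The medians of the large arms run from 58.8 to 89.7 with overlapping intervals, and single regions reach 490.21 on X and 458.54 on 3L.

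The number of lone wide regions varied along the arms. In bins of 1 Mb their number was 4.33 ± 2.42 on X (mean ± SD, n = 21 bins), 3.95 ± 2.22 on 2R (19 bins), 3.31 ± 2.00 on 3R (26 bins), 2.78 ± 2.07 on 3L (23 bins) and 2.64 ± 1.40 on 2L (22 bins). Only bins wholly between the first and last called region of an arm entered these means. Among the end bins left out were the first Mb of 3R, with 7 lone wide regions, and that of X, with 0. The first Mb of 2L and of 3L was counted, so the means are not fully alike between arms. The fullest bins held 10 each. One was the first Mb of 3L, where scores ran from 33.4 to 458.54, and the other was 19 to 20 Mb of X, where they ran from 42.39 to 326.16. In the X bin 10 of 12 wide regions stood alone, and in the 3L bin 10 of 15 did. These bins were picked after their values had been seen.

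Consecutive lone wide regions on an arm were a median of 191 kb apart (quartiles 63.8 and 376 kb, 382 gaps). The shortest gap, 5.71 kb, was between 2R 15156165 to 15156794 (score 46.75) and 2R 15162502 to 15163399 (score 141.16). The longest on each large arm were between 1310 and 1477 kb. On 2R no lone wide region fell between 3694729 and 5171248, on 3R none between 14922783 and 16376064, and on X none between 13738934 and 15192117. These stretches were not free of calls. The bin of 2R from 4 to 5 Mb held 26 called regions, 3 of them wide, and the bin of X from 14 to 15 Mb held 15, 1 of them wide.

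In places several lone wide regions followed one another with no other called region between them. There were 52 such runs, with 122 lone wide regions in all, and the longest had 5. Lone wide regions were 10.3% of arm regions, and the rule favours lone neighbours. Some runs therefore arise from the choice itself, and whether these were more than that was not tested. On 2L the run from 5306457 to 5461910 spanned 155 kb, and its scores in order were 30.61, 56.34, 220.64, 97.63 and 272.33. On 2R the run from 15066267 to 15163399 spanned 97.1 kb with scores of 51.53, 47.94, 194.1, 46.75 and 141.16. The run of 4 at 2R 2550366 to 2880782 spanned 330 kb and had scores of 70.01, 25.45, 194.33 and 102.16. None of the 3 runs rose or fell steadily in score.

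For 6 lone wide regions there was no further called region towards an arm end, which counted as far. They were the first called regions of 2L, 2R, 3L and 3R and the last of 2R and 4. The first of 2R, at 1614113 to 1614908, scored 225.52, and the first of 3R, at 219 to 1070, scored 33.17. The last of 2R, at 21145683 to 21146734, scored 42.95. The regions at arm ends thus included both strong and weak calls.

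Regions just inside and just outside the limits were as follows. The narrowest lone regions kept were X 8818720 to 8819320 (601 bp, score 48.98) and, all 603 bp wide, 3L 959738 to 960340 (33.4), X 4011053 to 4011655 (28.24) and X 17317389 to 17317991 (85.92). The widest lone regions left out were 2L 182797 to 183392 (596 bp, 28.91) and, all 595 bp wide, 3L 18764451 to 18765045 (25.68), X 11219430 to 11220024 (45.28) and X 15728719 to 15729313 (38.0). At the limit of isolation, X 2227887 to 2229036 was kept with a gap of 5031 bases and a score of 52.01, as were X 11588921 to 11590070 (5040 bases, 28.15) and 3R 4631105 to 4631960 (5080 bases, 53.38). Wide regions just left out were 3R 9809188 to 9809807 (4984 bases, 41.8), X 20931446 to 20932185 (4971 bases, 59.81) and 2R 3906061 to 3906842 (4938 bases, 202.96).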

How the data were processed

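Each of the 4 libraries was assigned to ChIP or Input and to its replicate from its title. Whether replicates are separate collections is not in the labels. Tools in the submitters' processing notes are BWA, MACS2 and CASAVA (1.7.0.2, 1.7.0.3), and the build is BDGP5. Per the file headers, regions were called by MACS on FlyBase release 5. The threshold, the use of the input libraries and any pooling are unstated in these sources, and each could change how wide and how many regions are. The score and the other values, start and end, are as the authors deposited them. Read depth is unknown.

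Starts of 0 occurred 2 times, so 1 was added to each start, and width was end minus deposited start. Gaps were measured between called regions of the same arm. Regions were named by rank of score (25 highest, 5 lowest, the highest of each arm, and the 5 highest and 5 lowest of 1 kb or wider), width (5 widest), isolation (5 farthest) and nearness to the limits. The members, comparisons and lists were chosen with earlier results of these data known. No test was made, because the list holds no value per library and every measure comes from the peak calls that chose the regions. Python 3.11.15, pandas 2.3.3 and scipy 1.17.1 were used, and the selection was tested on 20 simulated lists. Alternatives were widths of 500 and 800 bp, gaps of 2.5 and 10 kb, joining regions under 1 kb apart, the top 50% by score, the 5 large arms and counting both end bases. Leaving out the regions at arm starts was added after seeing the data.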

Additional observations from a re-analysis of the deposited data

Results flagged for a closer look

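Called regions outside the 6 arms were not used above, and the same rule found lone wide regions there too. Of 310 called regions on unplaced and heterochromatic sequence, 43 were lone and wide (13.9%, 95% exact binomial interval 10.2 to 18.2%, counting error only). The share on the arms, 10.3%, lies within this interval. The lone share of wide regions was not alike, at 43 of 49 there against 388 of 985 on the arms. The 43 comprised 40 on Uextra and 3 on U. The lowest of their scores was 27.75, the median 119 and the highest 195.72, and their median width was 675 bp. On the arms the lone wide regions had a median score of 73.3 and a median width of 837.5 bp. On such joined or unplaced scaffolds a gap between regions need not be a distance in the genome.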

How the results depend on the processing

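The number of lone wide regions moved from 388 to 223 with a width of 800 bp and to 647 after regions under 1 kb apart were joined. All 388 remained among the 647, and the other 259 sites were made of 2 or more called regions. The share of arm regions that were lone and wide moved from 10.3% to 13.9% at 500 bp, 5.94% at 800 bp, 12.4% at a gap of 2.5 kb, 7.61% at 10 kb, 22.4% after joining and 29.7% in the top 50% by score. The lone share of wide regions moved from 39.4% to 47.4%, 29.0%, 58.2% and 58.9% under the last 4 of these. Each of these rules changes the count by its own construction. The median score moved from 73.3 to 59.1 at 500 bp, 91.1 at 800 bp and 57.2 after joining. The other 39 of 54 values kept within 1.5 times the count or within the interval of the main value. The difference in median score from wide regions with a neighbour was 12.2. Its range of 0.12 to 20.4 covers only the interval of the lone regions' median, so it is not an interval for the difference. The difference was positive in all 9 alternatives but ran from 2.15 after joining to 13.0 at 800 bp. It was 4.05 at 500 bp and 5.18 in the top 50% by score. These values counted as kept only because they lay within 0.12 to 20.4. The share on X ran from 19.9% at a gap of 10 kb to 24.7% at a width of 800 bp. No paired analysis was possible because values of single libraries are not in the list, and no replicate could be left out. Unknown depth limits what can be said of weak neighbours: a region below the caller's threshold would not have ended a lone region's isolation.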

Other observations

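Scores recurred among the lone wide regions. Of the 388, 132 (34.0%) shared their score to 2 decimals with another called region on the arms, and 56 with another lone wide region. This also held at the top, for 10 of the 25 highest. The regions at 3R 12589175 to 12590270 and 3R 26737845 to 26738841 both scored 285.57 at widths of 1096 and 997 bp, and those at 2L 5460985 to 5461910 and 3L 12602283 to 12603295 both scored 272.33 at 926 and 1013 bp.

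When regions under 1 kb apart were joined first, the lone wide site with the most parts held 8 called regions, at 2L 2193347 to 2203644, with a highest score of 148.43.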
